A study of Homo sapiens with 4 samples.

Results

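Mitophagy receptors are proteins that mark a mitochondrion for degradation by autophagy. Members of the set studied here are BNIP3, BNIP3L, FUNDC1, FKBP8, BCL2L13, PINK1 and PHB2, and they were taken by gene symbol from the annotation of the array. Of the 7 genes, 5 had a listed probe set, each with 1, so 5 of 21448 probe sets were described. PINK1 and PHB2 have no listed probe set and are named only. BNIP3 was selected on its difference between the ORM and control arrays, so the values of the members in that comparison are given as a description. Counts of members past a threshold there stand beside the share over all probe sets, and nothing is read from them.

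The receptors BNIP3, BNIP3L, FUNDC1, FKBP8 and BCL2L13 sit in the outer mitochondrial membrane and bind the ATG8 proteins of the growing autophagosome through a short motif facing the cytosol. PHB2 is an inner membrane protein that becomes accessible when the outer membrane ruptures, and PINK1 is a kinase that labels damaged mitochondria with phosphorylated ubiquitin and recruits the ubiquitin ligase Parkin. BNIP3 and BNIP3L are well known as genes switched on by HIF, the transcription factor that accumulates when oxygen is low. In lymphocytes, clearing mitochondria by this route is part of how cells adjust their metabolism.

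The cells were Jurkat, an established human line of T-cell acute lymphoblastic leukemia. ORM cells had completed 1 round of migration through transwell pores of 3 μm in 24 h and were taken from the lower chamber. Control cells had not migrated according to the design of the series, and the labels describe them as a suspension culture. No allele or drug was named for either group, and both groups are the same line, so they stand for 1 cell line only. RNA of 2 ORM and 2 control samples, which the labels call biological replicates, was measured on 1 Clariom S array each. A free-text label gives other treatments, a control for ORM replicate 1, a 3D culture for ORM replicate 2, and for both control arrays a suspension culture that followed 3D confinement. The arrays were therefore grouped by title and source, which give ORM or control for all 4.

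The deposited values are log2 signals, in which a difference of 1 is a doubling. Array medians were 5.97 and 5.96 in ORM cells, against 6.04 and 6.0 in control cells. The arrays of 1 group were not equally alike. ORM replicates 2 and 1 differed by more than 1.8-fold at 91 probe sets (0.424%), and control replicates 2 and 1 at 911 (4.25%). All 10 T cell markers examined, from CD3D to TRAT1, lay above the array median in all 4 arrays, with signals of 8.42 to 11.77. The B cell gene CD79A had signals of 9.69 and 9.90 in ORM cells, against 10.06 and 10.25 in control cells, whereas MS4A1, which defines mature B cells, stayed between 2.59 and 2.86. CD79B lay between 6.20 and 6.48. No myeloid, erythroid, epithelial or fibroblast marker exceeded 6.63, and none of the markers passed the threshold used here, a fold change over 1.8 with an unadjusted p under 0.05 in limma. In RNA from whole cultures, fewer cells with a transcript and less of it per cell cannot be told apart.

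Stretches upstream of 3 genes are shown because those of BNIP3 and of ALDOC, a HIF target among the 10 genes nearest to BNIP3 in pattern, hold the short core that HIF is known to bind, and that of FUNDC1 does not. They were chosen after the values had been seen. Each is the 250 bases before the RefSeq start site on GRCh38.p14, all on the minus strand and written along the gene: BNIP3 at chr10:131981924-131982173, ALDOC at chr17:28576896-28577145 and FUNDC1 at chrX:44542860-44543109. Capitals mark the 5 letters ACGTG or GCGTG on either strand, and neighbouring matches can overlap.
BNIP3: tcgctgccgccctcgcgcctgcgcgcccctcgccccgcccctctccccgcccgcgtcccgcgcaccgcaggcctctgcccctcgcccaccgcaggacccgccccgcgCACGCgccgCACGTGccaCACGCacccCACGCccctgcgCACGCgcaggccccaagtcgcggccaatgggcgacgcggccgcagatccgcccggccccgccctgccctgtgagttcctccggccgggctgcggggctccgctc
ALDOC: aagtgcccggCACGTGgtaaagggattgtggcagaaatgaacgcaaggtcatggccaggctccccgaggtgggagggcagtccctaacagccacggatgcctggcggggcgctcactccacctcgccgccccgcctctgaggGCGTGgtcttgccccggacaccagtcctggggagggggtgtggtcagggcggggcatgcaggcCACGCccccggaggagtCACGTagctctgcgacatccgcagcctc
FUNDC1: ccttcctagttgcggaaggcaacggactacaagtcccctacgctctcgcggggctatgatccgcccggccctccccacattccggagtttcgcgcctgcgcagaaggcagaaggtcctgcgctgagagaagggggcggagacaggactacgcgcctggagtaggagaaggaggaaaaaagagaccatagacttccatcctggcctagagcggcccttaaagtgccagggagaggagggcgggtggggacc
The BNIP3 stretch held 2 matches of ACGTG, which are the 2 strands of 1 palindrome, and 4 of GCGTG, all between 143 and 104 bases before the start. The ALDOC stretch held 3 and 2, spread from 240 to 28 bases before the start. Of its 3 matches of ACGTG, 2 are likewise the 2 strands of 1 palindrome. Among all 35116 such stretches in the table, 18.5% held ACGTG, 32.2% GCGTG and 43.2% either. The promoter table covered 4 of the 7 members with 7 stretches, of which 28.6% held either motif. The other member with a match was BCL2L13, with 1 GCGTG at 17 bases before the start in 1 of its stretches, and PHB2 had none. BNIP3L, FKBP8 and PINK1 had no entry in the promoter table, so their upstream stretches were not searched. A match is a description of letters and no evidence that a factor binds there.

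BNIP3 had the largest difference of the 5 members. BNIP3 is a receptor with a domain related to the BH3-only proteins of cell death and is induced by low oxygen in many cell types. Its log2 signal was 8.75 and 8.88 in ORM cells, against 9.18 and 11.06 in control cells. Both ORM arrays lay below both control arrays, but the signal of control replicate 1 stood much nearer to the ORM arrays than to control replicate 2. The means were 8.82 ± 0.09 in ORM cells and 10.12 ± 1.33 in control cells (SD, n = 2 each), a difference of -1.30 (SE 0.55), or 2.47-fold lower in ORM cells. BNIP3 was the 7th lowest probe set by this difference.

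The size of the BNIP3 difference depended on the control array. Against control replicate 1 alone the ORM mean was lower by 0.37 on the log2 scale, or 1.29-fold. Against control replicate 2 alone it was lower by 2.25, or 4.74-fold. Control replicate 2 exceeded control replicate 1 by 1.88, or 3.68-fold, which is more than the difference between the groups, and only 0.0559% of all probe sets differed as much between the control arrays. BNIP3 was the 11th highest probe set by that difference. Control replicate 2 is part of the control mean on which BNIP3 was selected, so this share and rank are a description. The ORM arrays differed by 0.13.

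BNIP3L, also called NIX, is the closest relative of BNIP3 and is known for clearing mitochondria from maturing red blood cells. Its log2 signal was 9.71 and 9.74 in ORM cells, against 10.08 and 11.07 in control cells. As for BNIP3, both ORM arrays were low, control replicate 1 was slightly above them and control replicate 2 was far above. The difference of the means, 9.73 ± 0.02 in ORM cells and 10.57 ± 0.70 in control cells (SD, n = 2 each), was -0.85 (SE 0.32), or 1.8-fold lower in ORM cells. It was 1.28-fold lower than control replicate 1 and 2.54-fold lower than control replicate 2. Control replicate 2 exceeded control replicate 1 by 0.99, or 1.99-fold, and 2.35% of all probe sets differed as much.

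The other 3 receptors varied less between arrays. FUNDC1, a receptor whose binding to ATG8 proteins is controlled by phosphorylation, had log2 signals of 5.93 and 6.01 in ORM cells, against 6.10 and 5.65 in control cells. The groups overlapped, with control replicate 2 the lowest array and control replicate 1 the highest. The difference of the means was 0.10 (SE 0.20), and it turned to -0.13 against control replicate 1 alone and 0.32 against control replicate 2 alone.

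FKBP8 is a membrane-anchored member of the FK506-binding proteins that recruits LC3A. Its log2 signal was 8.67 and 8.63 in ORM cells, against 8.87 and 8.71 in control cells. Both ORM arrays lay below both control arrays by a narrow margin. The difference was -0.14 (SE 0.16), so it was smaller than its error. Control replicate 2 was lower than control replicate 1 by 0.16.

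BCL2L13, a BCL2 family protein that can stand in for the yeast mitophagy receptor Atg32, ran the other way. Its log2 signal was 7.85 and 7.99 in ORM cells, against 7.37 and 7.59 in control cells. Both ORM arrays lay above both control arrays. The difference was 0.44 (SE 0.17), or 1.36-fold higher in ORM cells, and it was 0.55 against control replicate 1 and 0.33 against control replicate 2. The spread between the control arrays, 0.22, was below the difference.

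**Figure D1:**
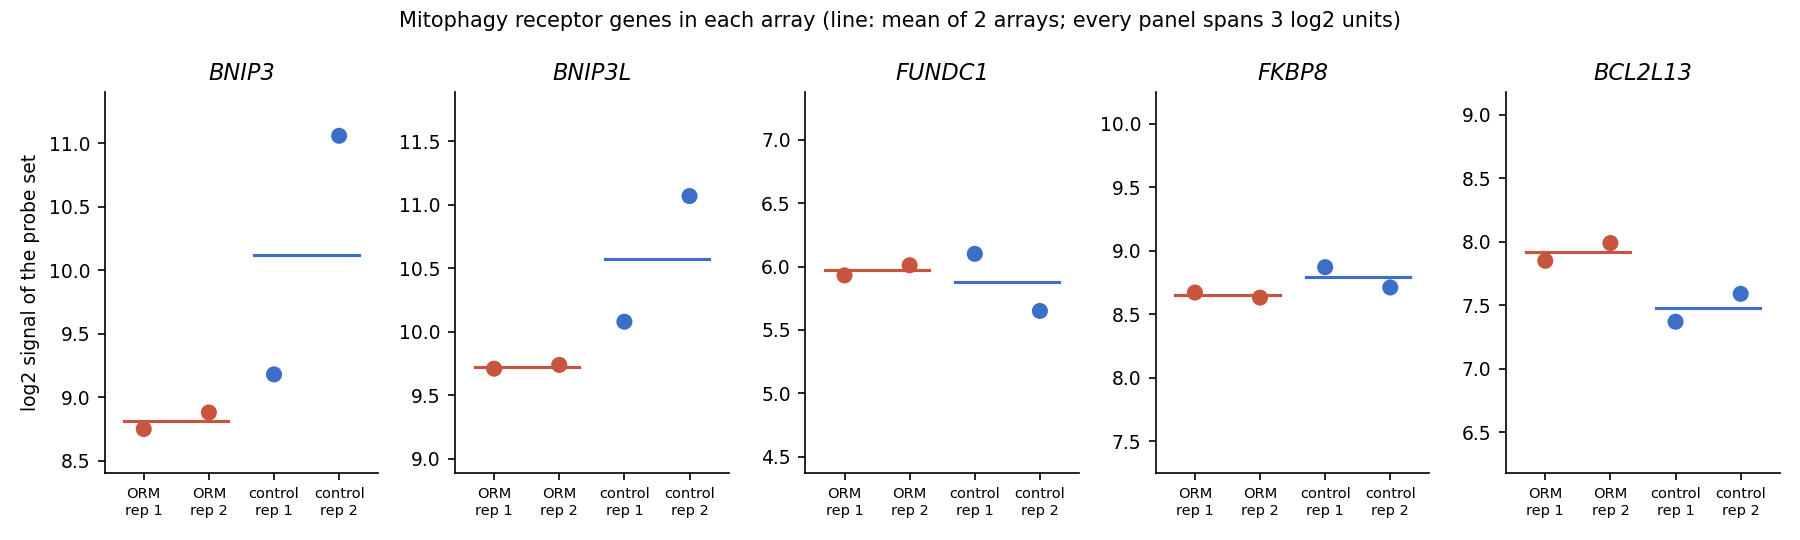
Log2 signal of the probe set (vertical axis, each panel spanning 3 log2 units) of the 5 measured receptor genes in ORM replicates 1 and 2 and control replicates 1 and 2. Points are arrays and lines are means of 2 arrays. BNIP3 at 11.06 and BNIP3L at 11.07 stand far above the other arrays in control replicate 2, and BCL2L13 is higher in both ORM arrays.

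Of the 5 members, 1 was past the threshold, BNIP3L, with ORM cells lower and a fold change just over 1.8, where over all probe sets 0.28% were past it lower and 0.424% higher. This count is no test of the members, since the set was chosen on the same comparison. It was 0 when ORM replicate 1, ORM replicate 2 or control replicate 2 was left out and 2 without control replicate 1, and in each of these fits the lone array of its group is assumed to vary like the other group. Both ORM arrays lay below both control arrays for 3 members (BNIP3, BNIP3L and FKBP8), as for 24.2% of all probe sets, and above them for 1 (BCL2L13), as for 21.4%. No member passed 1.8-fold between the ORM mean and control replicate 1, where 0.527% of all probe sets did. Against control replicate 2, BNIP3 and BNIP3L were lower by more than 1.8-fold, as were 2.9% of all probe sets. Across all probe sets, 2447 (11.4%) had an unadjusted p under 0.05, and the lowest Benjamini-Hochberg adjusted p in limma was 0.428.

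**Figure D2:**
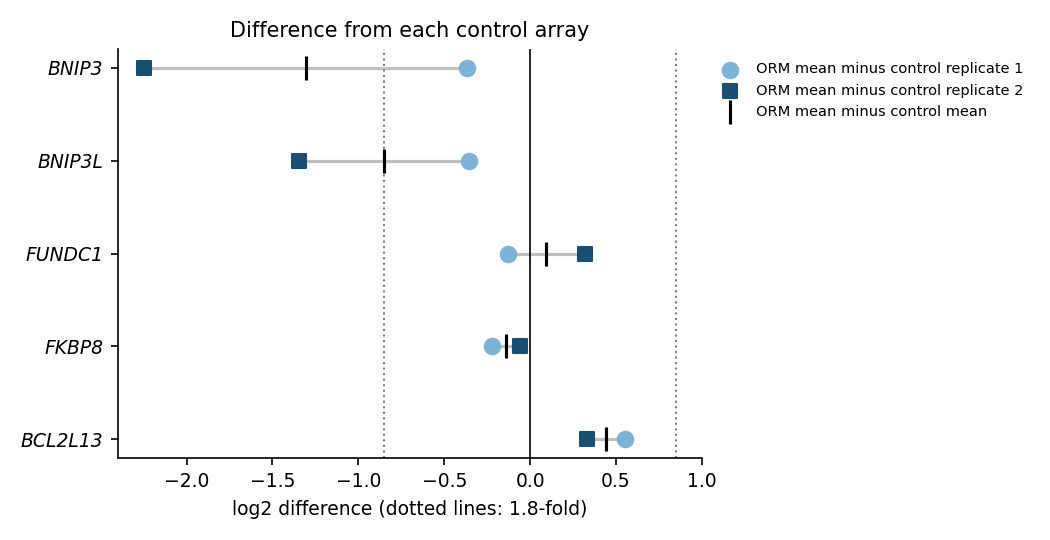
Log2 difference (horizontal axis) of the ORM mean from control replicate 1 (circles), control replicate 2 (squares) and the control mean (bars) for the 5 receptor genes, with dotted lines at 1.8-fold. The BNIP3 values run from -2.25 to -0.37, while those of FKBP8 run from -0.22 to -0.06.

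The control arrays were then compared with each other. BNIP3 and BNIP3L were more than 1.8-fold higher in control replicate 2 than in control replicate 1, as were 2.7% of all probe sets, and no member was lower by that much, as were 1.54%. With 1 array on each side this comparison has no test, and both arrays also entered the comparison on which BNIP3 was selected.

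Genes under the same transcription factor were examined in the same way. Of 30 HIF target genes, which did not include the receptors, 28 had a listed probe set (CA9 and PFKFB4 had none). The list was chosen with earlier results of these data known, so its counts are a description. All 28 had their highest signal in control replicate 2, against 33.3% of all probe sets, and 16 of them were more than 1.8-fold higher there than in control replicate 1, while none was lower. The median difference of control replicate 2 from control replicate 1 was 1.02, beside -0.01 over all probe sets. PDK1, which turns pyruvate away from mitochondria, had log2 signals of 7.61 and 7.43 in ORM cells, against 7.60 and 9.83 in control cells. BHLHE40, a transcriptional repressor named after its values were seen because it had the widest gap of the list, had 5.94 and 5.83 in ORM cells, against 5.99 and 9.37 in control cells. In both genes the ORM arrays and control replicate 1 lay close together, with control replicate 2 apart.

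The 2 HIF targets with the highest mean signal varied less. ENO1, the glycolytic enzyme enolase, had log2 signals of 12.11 and 12.22 in ORM cells, against 12.03 and 12.23 in control cells. LDHA, the lactate dehydrogenase subunit that makes lactate, had 11.43 and 11.68 in ORM cells, against 11.44 and 11.91 in control cells. Between the groups the median difference of the HIF targets was -0.36, beside -0.04 over all probe sets, and 0 of 28 passed the threshold in limma. Their median was 0.03 against control replicate 1 alone and -0.96 against control replicate 2 alone, where 15 of 28 (53.6%) were lower by more than 1.8-fold, and none passed 1.8-fold against control replicate 1. Control replicate 2 was thus the highest array for the 28 HIF targets as it was for BNIP3 and BNIP3L, and the part of this in the BNIP3 result was not tested. Against control replicate 1, where the HIF target median was 0.03, BNIP3 stood at -0.37 and BNIP3L at -0.36. Both lie near the low end of the range of the HIF targets there, which was -0.46 to 0.5. Only P4HA2 at -0.46 and KDM4B at -0.415 were lower among the HIF targets. P4HA2 had dim signals of 4.08 to 4.75, and the ORM arrays differed by 0.83 for KDM4B. Over all probe sets the SD of the difference from control replicate 1 was 0.291.

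Genes of the HIF pathway were given as a further list, which shares EGLN1 and EGLN3 with the HIF targets. It holds genes that sense oxygen and form HIF, and also CITED2, CREBBP and FOXO3. Of 14 such genes 12 were listed, and 6 of these were highest in control replicate 2, against 33.3% of all probe sets. EGLN1, EGLN3, CREBBP and FOXO3 are among the 6. The median difference of the list between the control arrays was 0.14. HIF1A, the oxygen-regulated subunit, had log2 signals of 9.73 and 9.66 in ORM cells, against 9.62 and 9.34 in control cells, and was lowest in control replicate 2. VHL, the ligase component that leads HIF to degradation, differed by -0.13 (SE 0.16). HIF is regulated mainly as a protein, which arrays do not measure.

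**Figure D3:**
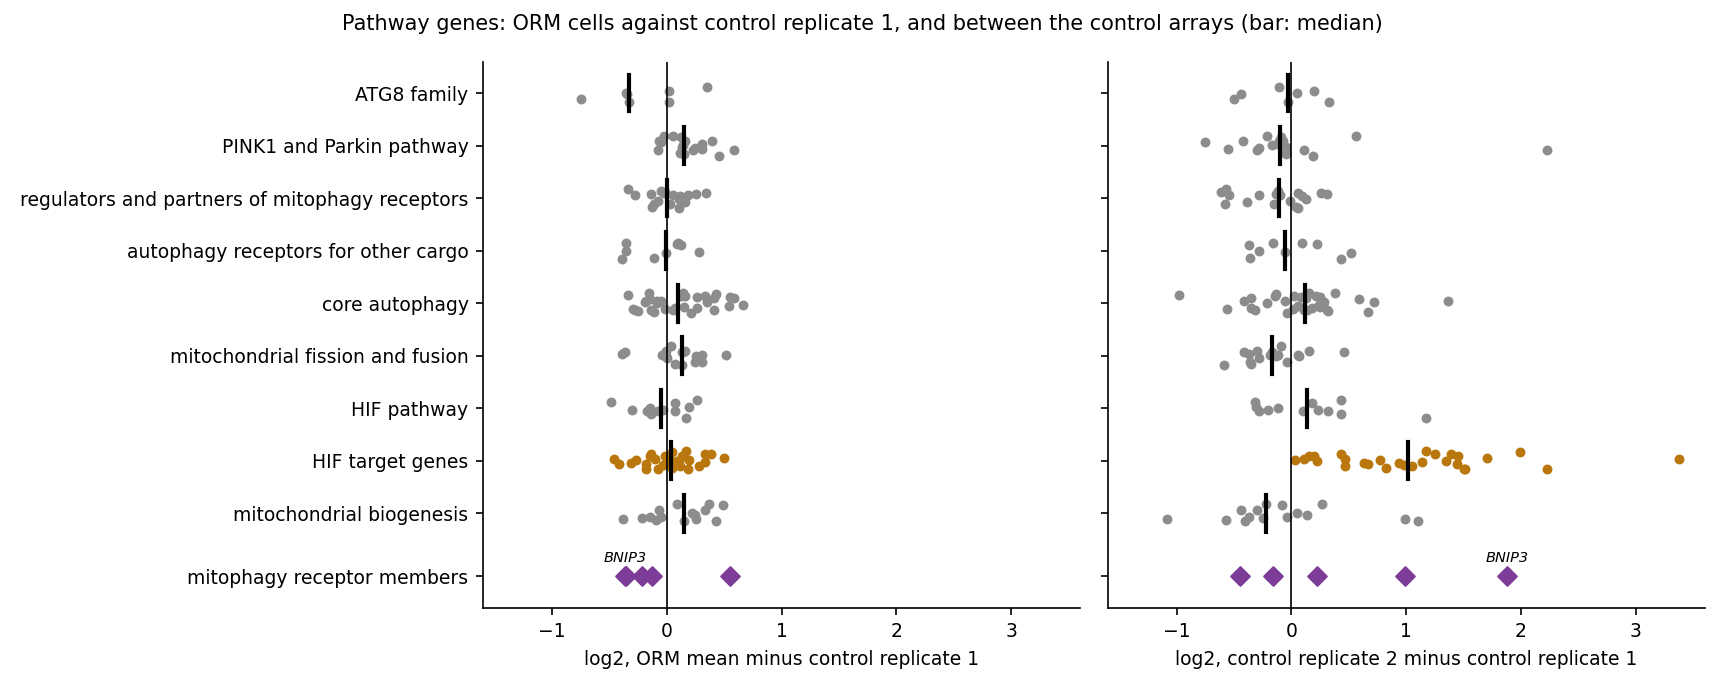
Log2 difference (horizontal axes) of the ORM mean from control replicate 1 (left) and of control replicate 2 from control replicate 1 (right) for each measured gene of 9 pathway lists and the 5 receptors (diamonds, of which BNIP3 and BNIP3L overlap on the left). Bars are medians. HIF target genes centre on 0.03 on the left and on 1.02 on the right. Genes that belong to 2 lists, such as PDK1 and EGLN1, are drawn in each.

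The partners of the receptors in autophagy were given by list. The ATG8 family, whose members the receptors bind, had a median difference of -0.15 over 7 genes. GABARAPL1 had log2 signals of 7.92 and 7.75 in ORM cells, against 8.58 and 8.08 in control cells, with a difference of -0.50 (SE 0.21), and GABARAP, its relative, one of -0.32 (SE 0.16). GABARAPL2, named after its values were seen, ran the other way, with 7.26 and 7.08 in ORM cells, against 6.82 and 6.71 in control cells, a difference of 0.41 (SE 0.17). Both ORM arrays lay below both control arrays in 3 of the 7 genes, against 24.2% of all probe sets, and above them in 1, against 21.4%. None of the 7 passed the threshold. In the PINK1 and Parkin pathway, 18 of 20 genes were listed, and their median was 0.22. Both ORM arrays lay above both control arrays in 13 of the 18, against 21.4% of all probe sets, and control replicate 2 was the lowest array in 14, against 30.8% of all probe sets. This list held PDK1 by mistake, and without it the median over 17 genes was 0.23. VCP, the ATPase that extracts ubiquitinated proteins from the outer membrane, had signals of 11.0 and 10.99 in ORM cells, against 10.69 and 10.14 in control cells, with a difference of 0.58 (SE 0.22). VDAC1, the outer membrane channel that Parkin ubiquitinates, differed by 0.17.

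Regulators and partners of the receptors had a median of 0.06 over 18 of 19 genes. CSNK2A1, a catalytic subunit of casein kinase 2, which phosphorylates FUNDC1, differed by 0.32 (SE 0.16), and PHB1, the partner of PHB2 in the prohibitin ring, by 0.32 (SE 0.23). Other receptors of selective autophagy had a median of -0.03 over 9 genes. They include SQSTM1, OPTN, the ferritin receptor NCOA4 and the receptors for the endoplasmic reticulum RETREG1 and TEX264. Of these, CALCOCO2, which binds ubiquitin on cargo, differed by -0.03 and NCOA4 by 0.31. RETREG1, named after its values were seen, had the widest difference of the list, -0.60 (SE 0.22). The core autophagy genes had a median of 0.11 over 32 of 34 genes, with 0.17 for ATG13 of the initiating kinase complex and 0.23 for SNAP29, which helps fuse autophagosomes with lysosomes. Genes of mitochondrial fission and fusion had 0.23 over 17 genes, and SLC25A46 and YME1L1 of this list had 0.25 and 0.32. Those of mitochondrial biogenesis had 0.16 over 15 of 16 genes, with 0.48 for SSBP1 and 0.35 for TFAM, both of which bind mitochondrial DNA. All the differences named for these lists were under 1.8-fold.

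Across the 9 lists 150 of 160 genes were listed, and 0 passed the threshold in limma or by the methods' t-test. Of the 150, 21 (14%) had an unadjusted p under 0.05, 16 higher and 5 lower in ORM cells, beside 11.4% of all probe sets, and each of the 21 had an adjusted p of at least 0.428 in limma.

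The genes whose pattern lay nearest to BNIP3 were found from the log2 signals over the 4 arrays, each centred on its own mean, by the root mean square difference from BNIP3. For the 10 nearest of 17686 ranked probe sets this difference was 0.174 to 0.251, against a median of 0.94. They were PDK1, ZMAT1, DNAAF9, ANKZF1, ARG2, STC2, ALDOC, TSPAN9, ETV5 and GCSAM. Since they were chosen for their likeness to BNIP3, a high signal in control replicate 2 is part of the choice. ARG2, the mitochondrial arginase, had log2 signals of 6.0 and 6.26 in ORM cells, against 6.84 and 8.11 in control cells, and DNAAF9, named as an assembly factor of axonemal dyneins, had 4.58 and 4.52 in ORM cells, against 5.05 and 6.47 in control cells. These were the 2 of the 10 that passed the threshold, with lower signals in ORM cells, and control replicate 1 lay above both ORM arrays in each. ALDOC, an aldolase of glycolysis, had 6.81 and 7.08 in ORM cells, against 7.13 and 8.64 in control cells. ANKZF1, which acts on stalled ribosomes, had 7.17 and 7.46 in ORM cells, against 7.27 and 9.26 in control cells. For ANKZF1 control replicate 1 lay between the ORM arrays. STC2, a secreted glycoprotein of the stanniocalcin family, had 6.09 and 6.40 in ORM cells, against 6.18 and 8.05 in control cells. ETV5, an ETS family transcription factor, had 3.24 and 3.00 in ORM cells, against 3.39 and 4.87 in control cells, so 3 of its 4 signals lay under the lower quartile of their arrays, which was 4.14 to 4.26. Over the 10 genes the difference between the groups ran from -1.34 to -0.85, and control replicate 2 exceeded control replicate 1 by 1.27 to 2.23.

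Of the 10, 3 were in the HIF target list (PDK1, ANKZF1 and ALDOC). BNIP3L ranked 51st with a difference of 0.39, while FKBP8 ranked 8288th, BCL2L13 13538th and FUNDC1 14447th. BNIP3L was thus the receptor nearest to BNIP3 over these 4 arrays. Of the upstream stretches of the 10 genes, 7 from 6 genes were in the promoter table, and 85.7% of these held either motif. For the HIF targets 83.3% of 36 stretches did, beside 43.2% of all stretches. PDK1 and ALDOC count in both sets, and the HIF targets were listed as genes under HIF, so these shares are no test.

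**Figure D4:**
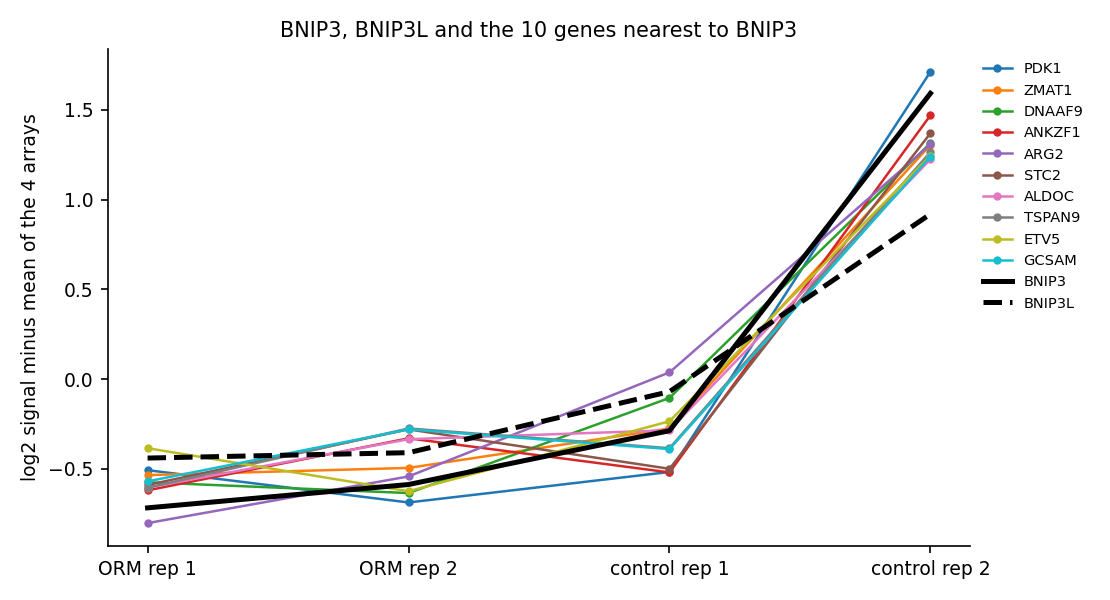
Log2 signal minus the mean of the 4 arrays (vertical axis) in ORM replicates 1 and 2 and control replicates 1 and 2 for BNIP3 (thick line), BNIP3L (dashed) and the 10 genes nearest to BNIP3. Lines only join the values of 1 gene. The 10 genes were chosen for this likeness, and the BNIP3L line is flatter than that of BNIP3.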

How the data were processed

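RNA of Jurkat cells was measured on 4 human Clariom S arrays (2 ORM, 2 control). The authors deposited log2 values per probe set that a core facility had already normalized. RMA and Transcriptome Analysis Console are named in the submitters' processing notes, without a version. RNA extraction is described differently in the labels and in the supplementary methods. The background correction and probe summarization were taken as deposited.

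ORM arrays were compared with control arrays at all 21448 probe sets in limma 3.58.1 (lmFit and eBayes, under R 4.3.3), and dim signals were not filtered. The threshold was a fold change over 1.8 with a p under 0.05, taken from the supplementary tables and applied here to limma's unadjusted two-sided p, with Benjamini-Hochberg adjustment over all probe sets beside it. The fit was tested on simulated data in which both groups had the same variance. That setting does not cover the wider spread between the control arrays here. P-values measure the spread between these arrays only, and with 2 arrays a group, which limits the precision, an exact permutation test cannot go below 0.333. The annotation of the platform gave a single gene symbol to 17709 probe sets and did not list 3739. For a list gene with several probe sets, the one with the highest mean was used.

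Named genes were all members, the genes of each list past the threshold or else the 2 with the highest mean signal, and the 10 genes nearest to BNIP3, with Y-linked genes left out. BHLHE40, GABARAPL2, RETREG1 and the upstream stretches were chosen after values were seen, and so was the PINK1 and Parkin list without PDK1. The members and lists were chosen with earlier results of these data known. Upstream sequences came from the RefSeq promoter table (GRCh38.p14), and motifs were searched by exact match on both strands. Alternatives were quantile normalization, median centring, the replicate number as a block, limma with trend and robust settings, and the methods' t-test. Others were a filter on a mean log2 signal of at least 5, fold changes over 1.5 or 2 and each array left out. The methods' t-test is a Student t-test with equal variances. The methods name a Student t-test for 2 groups in general, whereas for the arrays they name Transcriptome Analysis Console.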

Additional observations from a re-analysis of the deposited data

How the results depend on the processing

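The number of members past the threshold moved with most settings. It was 2 (BNIP3 and BNIP3L) with quantile normalization and with limma's trend and robust settings, and 0 with each array centred on its median, by the methods' t-test and at a fold change over 2. With the replicate number as a block it was also 2, but the numbers did not pair the samples (same-numbered deviations correlated at 0.0929). Leaving out each array in turn gave 0 to 2, with 0 without ORM replicate 1, ORM replicate 2 or control replicate 2 and 2 without control replicate 1, where the lone control array is assumed to vary like the ORM arrays. Over all probe sets 151 passed, 91 higher and 60 lower, against 123 higher and 42 lower with centred arrays. The total was 49 by the methods' t-test, 941 at a fold change over 1.5, 66 at one over 2, 162 with the block, and 100 to 1009 with an array left out: 235 without ORM replicate 1, 100 without control replicate 2 and 1009 without control replicate 1. The cause was not tested. The BNIP3 difference ran from -2.25 without control replicate 1 to -0.37 without control replicate 2, and that of BNIP3L from -1.35 to -0.36. Both stayed below 0 under both scalings. In both genes both ORM arrays lay below both control arrays, so leaving out an array could not change the sign. The HIF target median was -0.36, but 0.03 without control replicate 2, and 14 HIF targets passed without control replicate 1. The medians of 2 other lists crossed 0: receptor regulators (0.06, but -0.03 without ORM replicate 2) and other autophagy receptors (-0.03, but 0.03 with centred arrays). Of the 10 genes nearest to BNIP3, 7 were shared with quantile normalization. Over 20 results and 125 alternatives, 0 called values changed sign. Among the members only a called value could count here, and only BNIP3L was called, so this is no measure of stability. The FUNDC1 difference, which was not called, was 0.095 but -0.13 without control replicate 2.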
